A study of Homo sapiens with 4 samples.

Results

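The values of 10 mucin genes of biliary epithelium were followed over 4 arrays of HuCCT1, a human cholangiocarcinoma cell line. The genes were MUC1, MUC2, MUC4, MUC5AC, MUC5B, MUC6, MUC13, MUC15, MUC16 and MUC20. They were chosen by name as a gene family, with earlier results of these data known. Each probe whose transcript accession belongs to one of them was taken, whatever its value. The accession reached 17 probes for 8 of the 10 genes, out of 19483 genes reached in all. No probe was reached for MUC5AC or MUC20, so these 2 genes have no value here.

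Mucins are long glycoproteins whose repeats of serine and threonine carry dense O-linked sugars. MUC2, MUC5AC, MUC5B and MUC6 are secreted and build the mucus gel, whereas MUC1, MUC4, MUC13, MUC15, MUC16 and MUC20 sit in the cell membrane. In the biliary tree, mucins coat and protect the duct lining. MUC1, MUC4 and MUC5AC are well known for their presence in cholangiocarcinoma.

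All 4 cultures were HuCCT1 cells transfected at 30 nM and, 24 h later, stimulated with EGF (5 ng/ml, 24 h, 0.1% serum). The arrays held Pre-miR-376c (miR-376c, a synthetic precursor of the microRNA), the Pre-miR negative control (miControl), a siRNA against GRB2 (siGRB2; the study's methods name the duplex siGRB2-2) and a non-silencing siRNA (siControl). GRB2 is the adaptor that links the EGF receptor to RAS signalling, and the study asked what the microRNA and the loss of GRB2 do to gene expression under EGF. There is 1 array per condition and every culture received EGF, so neither a p-value nor an SD can be attached to a condition, and an effect of EGF itself cannot be measured.

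The microRNA delivered by the precursor is shown with its seed, bases 2 to 8 counted from the 5′ end, in capitals. It is RefSeq's mature form (build GRCh38.p14, chr14:101039732-101039752, plus strand).
hsa-miR-376c-3p: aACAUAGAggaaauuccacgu

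Level means the log2 processed signal of a probe minus the log2 of its array's 75th percentile, so a level of 0 equals the signal that 75% of spots do not exceed. That percentile was a signal of 1719 to 2689. A probe is called detected on an array when the scanner software flagged it well above background there. Each mucin probe is a single spot, none carried an outlier flag, and levels of different probes are not compared with each other. The scanner software's own error on a detected level was 0.14 to 0.19 for the probes detected on all 4 arrays, on the log2 scale. It covers the array's own error and not the spread between cultures.

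The siControl array stood apart from the others. Over all detected probes, the SD of the log2 differences was 0.54 to 0.58 in the 3 pairs of arrays that include it and 0.31 to 0.36 in the other 3 pairs. Every treatment is therefore given against both negative controls. The arrays detected 21811 to 24119 of 34127 probes. GRB2, the target of the siRNA, had a level of -0.65 with siGRB2, -0.10 with siControl, 0.07 with miR-376c and 0.62 with miControl. It was lowest on the array labelled siGRB2, by 0.55 against siControl and by 1.27 against miControl. The labelled cell type fits its markers: KRT7, KRT19, EPCAM and SOX9, markers of bile duct cells, were detected on all 4 arrays, and of 5 hepatocyte markers only SERPINA1 was, with ALB, APOB and TTR detected on none.

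Of the 17 probes, 11 were detected on all 4 arrays, 2 on 1 to 3 arrays and 4 on none. The share on all 4 was 64.7%, beside 62.2% of all probes. At least 1 probe was detected on every array for MUC1, MUC2, MUC4, MUC6 and MUC16. Every probe of MUC1, MUC4 and MUC16 was detected throughout. MUC5B, MUC13 and MUC15, with 1 probe each, were well above background on no array.

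Among the membrane mucins, MUC4, a large ligand-like partner of the receptor ERBB2, was measured by 4 probes. Probe A_24_P239176 had a level of 1.75 with siGRB2, 0.99 with siControl, 1.57 with miR-376c and 1.29 with miControl. Probe A_24_P239177 had 1.13, 0.37, 0.95 and 0.63 in the same order. These 2 probes moved alike, with the highest level on the siGRB2 array and the lowest on the siControl array. Probe A_24_P208825 had 1.35 with siGRB2, 1.17 with siControl, 0.87 with miR-376c and 0.89 with miControl. Probe A_33_P3417281 had -0.33, -0.67, -0.67 and -0.74 in that order. All 4 probes were highest with siGRB2 (3 of 4 under a shift to the array median and 1 of 4 under normexp background correction on all spots), while the lowest array was siControl for 2 of them, miR-376c for 1 and miControl for 1. At 3 of the 4 probes the next array lay within the scanner error of a difference, 0.20, below siGRB2.

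Set against miControl, the 4 MUC4 probes were higher with siGRB2 by 0.41 to 0.50 (mean 0.46), or 1.33-fold to 1.41-fold. Each difference had a scanner error of 0.20, and each 95% interval from that error lay above 0. The interval of A_33_P3417281 did so only just, starting at 0.01. The range of the differences stayed between 0.36 and 0.50 under 6 other ways of scaling or background correction. It was -0.33 to 0.66 under 1 (normexp on all spots). The exclusion of 0 did not hold under all of those 6. The lowest difference was 0.39 under quantile normalization and 0.38 with the 75th percentile over detected probes. It was 0.36 under normexp without 5 spots of high local background. An interval of the same width around each of these lowest values includes 0. Against siControl, the same probes were higher with siGRB2 by 0.18 to 0.76, and 2 of the 4 intervals included 0. The 4 probes share 1 gene and 1 RNA sample, so they are not replicates. With miR-376c, MUC4 differed from miControl by -0.02 to 0.32 and from siControl by -0.30 to 0.58, so the probes did not share a direction against either control. The -0.02 lay within the scanner error of 0.20. Against miControl all 4 probes were higher under a shift to the array median (0.09 to 0.43) and in the authors' own log2 values (0.02 to 0.35).

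MUC1, the membrane mucin of the glandular cell surface, was measured by 2 probes that are assigned to different transcripts of the gene. Probe A_23_P137856 had a level of 0.55 with siGRB2, 0.43 with siControl, -0.18 with miR-376c and 0.04 with miControl. Probe A_33_P3332215 had -4.04, -4.59, -4.80 and -4.02 in that order. Both probes were lowest on the miR-376c array, also under the 7 other ways of scaling or background correction. The levels with miR-376c were lower than with miControl by 0.22 and 0.78 and lower than with siControl by 0.61 and 0.22, for the first and the second probe. Only 2 of these 4 differences, the 0.78 and the 0.61, had a 95% interval from the scanner error that left out 0. The treatments differed at both probes by about the same amount: MUC1 was higher with siGRB2 than with miR-376c by 0.73 (95% interval 0.33 to 1.13) and by 0.77 (0.27 to 1.26). Under normexp on all spots these differences were 0.37 and 3.66.

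The 2 MUC1 probes did not follow each other between the negative controls. The level with siControl minus that with miControl was 0.39 for A_23_P137856 and -0.56 for A_33_P3332215. Accordingly siGRB2 was above siControl by 0.12 and 0.55, and apart from miControl by 0.51 and -0.01. For siGRB2 the 2 probes shared no direction against miControl, except under normexp, where both were higher (by 0.14 and 0.51 without 5 spots of high local background, and by 0.19 and 3.27 on all spots).

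MUC16, the membrane mucin that carries the CA125 antigen and binds mesothelin, was measured by 2 probes. Probe A_23_P5211 had a level of -0.29 with siGRB2, -0.60 with siControl, -0.44 with miR-376c and -0.17 with miControl. Probe A_33_P3313110 had -3.72, -4.34, -3.93 and -3.44 in that order. Both probes gave the same order of arrays, from miControl at the top through siGRB2 and miR-376c to siControl. At A_23_P5211 no neighbours in that order differed beyond the scanner error of a difference (0.20). At A_33_P3313110 only siGRB2 and miR-376c did not, at 0.21 with an error of 0.22. The sign of every MUC16 comparison turned with the control. With miR-376c, MUC16 was lower than miControl by 0.27 and 0.49 and higher than siControl by 0.16 and 0.41. With siGRB2, MUC16 was lower than miControl by 0.11 and 0.28 and higher than siControl by 0.32 and 0.61. Under normexp on all spots siGRB2 was above miControl as well, by 0.08 and 2.74, beside a median of 0.93 over all probes. The largest MUC16 differences were those between the 2 negative controls, at -0.43 and -0.90 (siControl minus miControl).

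**Figure D1:**
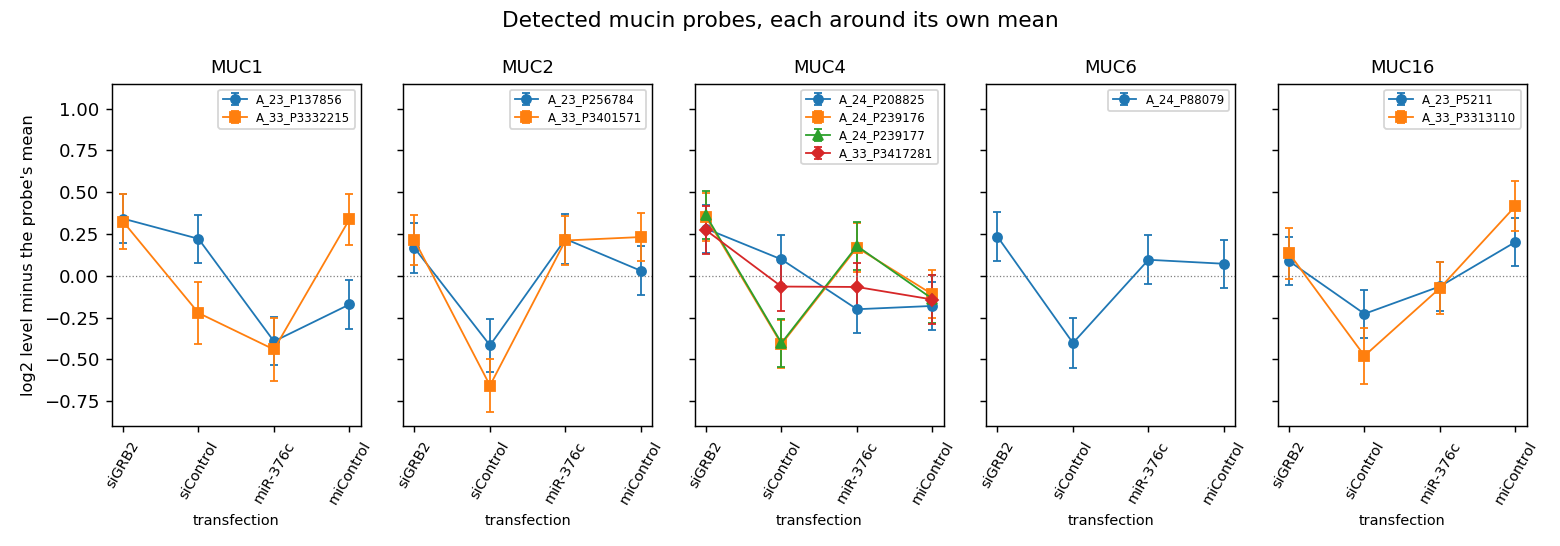
Level of each mucin probe detected on all 4 arrays minus that probe's mean over the 4 arrays, by gene and transfection, with bars for the scanner software's error on each level (1 array each). All 4 MUC4 probes peak on the siGRB2 array (3 under a shift to the array median, 1 under normexp on all spots), both MUC1 probes are lowest on the miR-376c array, and the MUC2, MUC6 and MUC16 probes are lowest on the siControl array.

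Among the secreted gel mucins, MUC2, the main mucin of intestinal goblet cells, was measured by 4 probes. Probe A_33_P3401571 had a level of -3.00 with siGRB2, -3.87 with siControl, -3.00 with miR-376c and -2.98 with miControl. The siControl array alone was low, and the other 3 lay within 0.02 of each other. Probe A_23_P256784 had -3.31, -3.89, -3.26 and -3.45 in the same order, with siControl again lowest. Probe A_33_P3412384 was near background, at -5.67 with siGRB2, -6.12 with miR-376c and -6.60 with miControl, and it was not well above background with siControl. It gave the mucins' largest measured difference, 0.93 higher with siGRB2 than with miControl (95% interval 0.22 to 1.65), on signals of 39.2 and 27.7 before scaling. The other 2 detected MUC2 probes differed in that comparison by 0.14 and -0.02. The last MUC2 probe, A_24_P84657, was detected on no array.

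MUC6, the gel mucin of gastric and biliary glands, had 2 probes. Probe A_24_P88079 had a level of -2.54 with siGRB2, -3.18 with siControl, -2.68 with miR-376c and -2.71 with miControl. As with MUC2, siControl was low and the other 3 arrays lay within the scanner error of each other. Probe A_33_P3314500 was well above background on the miControl array only, at a signal of 28.1. The lowest signal that counted as well above background was 21.2 to 24.4, so no fold against the other arrays can be given.

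MUC5B, a gel mucin of airway and gallbladder, had signals of 8.78 to 14.1 over the 4 arrays. MUC13, a membrane mucin of intestinal epithelium, had signals of 5.56 to 6.09, and MUC15, another membrane mucin, 5.63 to 6.27. All 3 lay under the lowest signals that counted as well above background. A difference between transfections was not detectable for them. In RefSeq's gene order, MUC6, MUC2, MUC5AC and MUC5B neighbour each other on chromosome 11, with 1 uncharacterized locus between MUC6 and MUC2, and MUC20 lies beside MUC4 on chromosome 3. Within this chromosome 11 group, MUC2 and MUC6 were detected and MUC5B was not.

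With miR-376c against its own control, no mucin probe was 2-fold apart among the 13 seen well above background on either array, beside 3.04% of all such probes. Over the 12 probes detected on both arrays, 6 were higher and 6 lower, with 6 to 8 higher under the other scalings and background corrections. Above 0 lay 46.4% of all probes. The median log2 difference was 0.00, beside -0.03 over all probes, and the values ran from -0.78 (MUC1 A_33_P3332215) to 0.48 (MUC2 A_33_P3412384). MUC1 and MUC16 were on the lower side with both of their probes.

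With siControl as the control of miR-376c, the mucin median was higher than with miControl. Again no probe was 2-fold apart, beside 7.26% of all probes. Of 11 probes, 7 were higher with miR-376c, where 57% of all probes were. The median was 0.41 beside 0.09 over all probes, and 0.21 under quantile normalization and under normexp and 0.25 under a shift to the array median. Of the 5 genes with a probe detected on every array, only MUC1 was lower than both controls with every probe, and by sizes that differed between the probes.

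With siGRB2 against its own control, no mucin probe reached 2-fold, beside 9.82% of all probes. All 11 probes detected on both arrays were higher with siGRB2, where 60.3% of all probes were. These 11 probes belong to 5 genes and come from 1 pair of arrays, so they are not independent of each other. The median log2 difference was 0.58, beside 0.15 over all probes. Values ran from 0.12 (MUC1 A_23_P137856) to 0.87 (MUC2 A_33_P3401571). Under normexp on all spots 8 of the 11 were higher, with a median of 0.57 beside 1.03 over all probes. Under a shift to the array median 9 were, with a median of 0.30 beside -0.13 over all probes. A 12th probe, MUC2 A_33_P3412384, was at least 1.57-fold higher with siGRB2.

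With siGRB2 set against miControl, no mucin probe was 2-fold apart, beside 2.94% of all probes, and 8 of 12 probes were higher, beside 56.1%. The median over these 12 was 0.29, beside 0.04 over all probes, and smaller than the 0.58 of 11 probes against siControl. That order depended on the processing. With quantile normalization both medians were 0.27, and under normexp on all spots they were 1.29 against miControl and 0.57 against siControl. Under normexp on all spots the medians over all probes were 0.93 and 1.03 in that order. With levels as defined above, both MUC16 probes had negative differences against miControl. MUC2 A_33_P3401571 and MUC1 A_33_P3332215 were within 0.02 of miControl. Every MUC4 probe was higher with siGRB2 than with either control, although A_24_P208825 turned to -0.10 against siControl under a shift to the array median, and under normexp on all spots the lowest MUC4 differences were -0.57 against siControl and -0.33 against miControl. Both MUC1 probes and both MUC2 probes were also higher with siGRB2 than with either control under normexp without the 5 spots of high local background, as were both MUC2 probes and both MUC16 probes under normexp on all spots. There the lower MUC16 differences, 0.47 against siControl and 0.08 against miControl, lay below the medians over all probes. MUC6 A_24_P88079 was higher too, by 0.64 against siControl and by 0.16 against miControl.

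**Figure D2:**
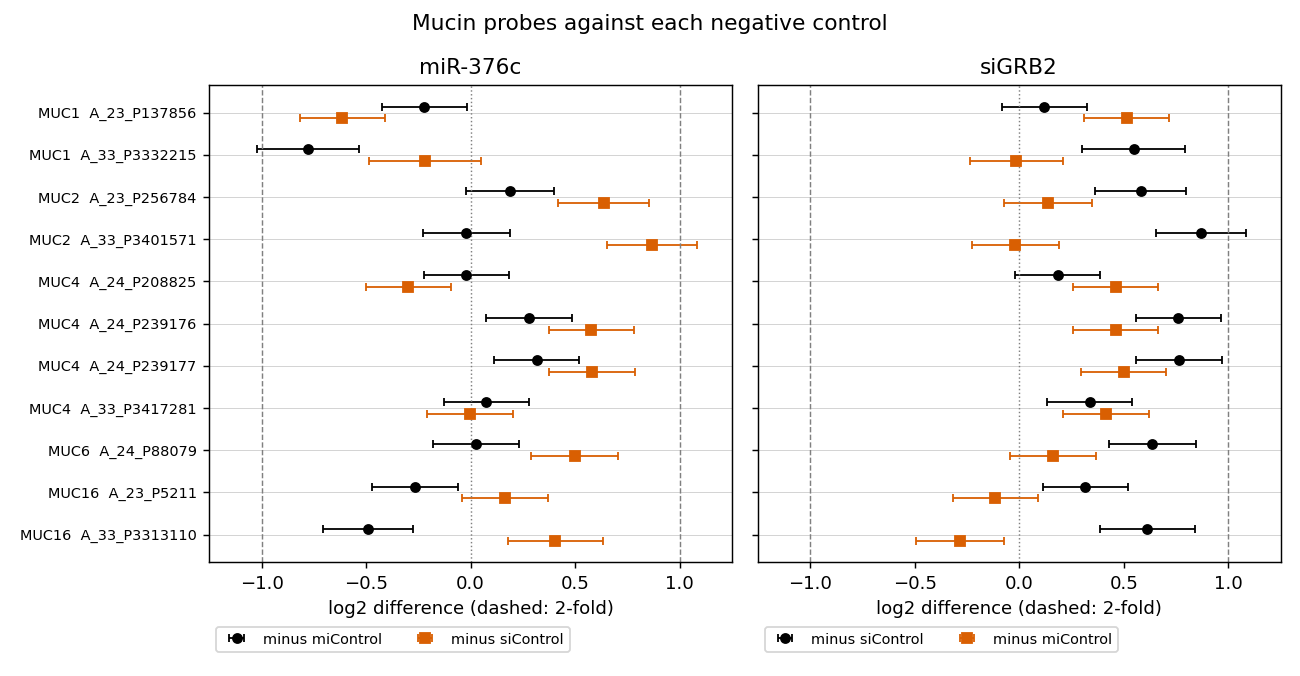
Log2 difference of each mucin probe detected on all 4 arrays for miR-376c (left) and siGRB2 (right), minus its own negative control (black circles) and minus the other one (orange squares), with bars for the scanner software's error of a difference. No point passes the dashed 2-fold lines, and between the controls the MUC2 probe A_33_P3401571 and the MUC16 probe A_33_P3313110 move most, by 0.89 and 0.90.

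The pairs of arrays that do not set a treatment against a control place the same values. Between the negative controls, siControl was lower than miControl at 8 of 11 mucin probes and higher at 3, where 42.7% of all probes were higher. The median was -0.43 beside -0.10 over all probes. That median was -0.16 under a shift to the array median, -0.26 under quantile normalization and -0.28 under normexp. None was 2-fold apart, beside 9.17% of all probes. Of the 11 probes detected on all arrays, none was highest on the siControl array, beside 29.6% of all probes, and 7 were lowest there, beside 45.8%. They were both MUC2 probes, both MUC16 probes, MUC6 and 2 of the MUC4 probes. With a shift to the array median, the 7 became 6 and the share of all probes 27.8%.

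Between the treatments, siGRB2 was above miR-376c at 11 of 12 probes (9 to 11 under the other scalings and background corrections), beside 60.5% of all probes. The median was 0.20 beside 0.07 over all probes, and none was 2-fold apart, beside 2.9% of all probes. The largest of these differences were those of the 2 MUC1 probes. On the siGRB2 array 6 of the 11 probes were highest, namely all 4 of MUC4, MUC6 A_24_P88079 and MUC1 A_23_P137856, beside 29.9% of all probes. With a shift to the array median the 6 became 4, 3 of them MUC4, beside 16.2% of all probes, and under normexp on all spots 7, beside 61.3%.

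**Figure D3:**
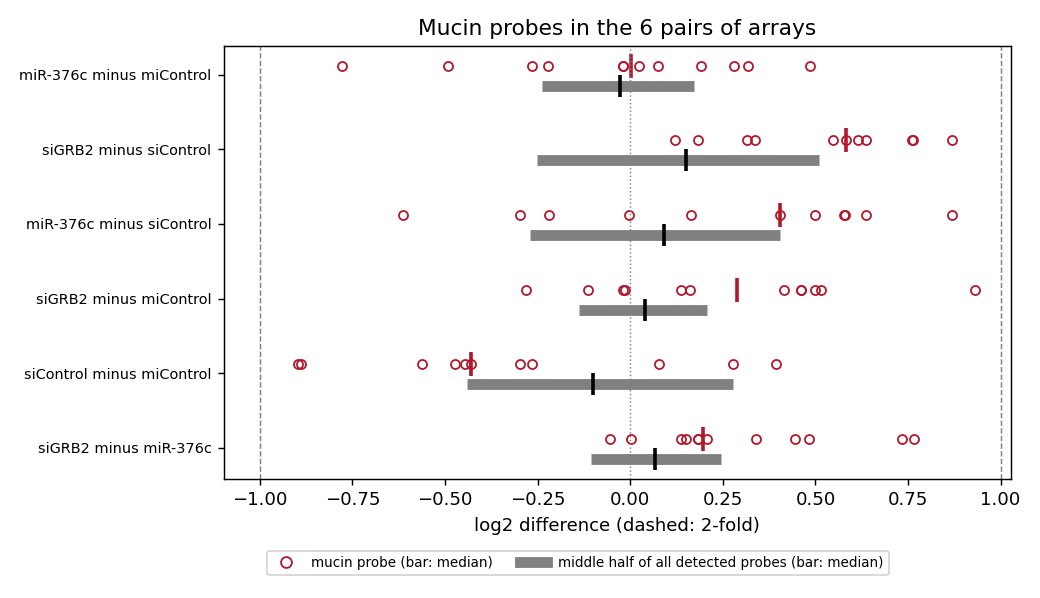
Log2 differences of the mucin probes detected on both arrays (red circles, red bar for their median) in the 6 pairs of arrays, with the interquartile range of all detected probes (grey) and its median (black bar). The mucins spread around the median of all probes for miR-376c minus miControl, and all 11 lie above 0 for siGRB2 minus siControl (9 of them under a shift to the array median and 8 under normexp on all spots).

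The letters upstream of 5 of the genes were read from RefSeq (build GRCh38.p14), as the 250 bases before the first listed transcript start. Those of the 3 genes detected with every probe (MUC1, MUC4 and MUC16) and of the undetected MUC13 are shown, 5′ to 3′ on the gene's strand, so that the letters can be set beside the levels. Capitals mark 3 motifs searched on both strands: the GC box GGGCGG bound by SP1-type factors, the AP-1 site TGANTCA bound by FOS and JUN, and the TATA box TATAAA. MUC2 also had a window. MUC5AC, MUC5B, MUC6, MUC15 and MUC20 had none.
MUC1 (chr1:155192916-155193165, minus strand): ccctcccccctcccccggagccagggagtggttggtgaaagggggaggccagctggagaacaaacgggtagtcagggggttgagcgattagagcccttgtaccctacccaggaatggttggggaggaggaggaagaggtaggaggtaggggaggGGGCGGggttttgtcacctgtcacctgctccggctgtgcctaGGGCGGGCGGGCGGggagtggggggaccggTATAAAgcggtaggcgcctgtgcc
MUC4 (chr3:195811930-195812179, minus strand): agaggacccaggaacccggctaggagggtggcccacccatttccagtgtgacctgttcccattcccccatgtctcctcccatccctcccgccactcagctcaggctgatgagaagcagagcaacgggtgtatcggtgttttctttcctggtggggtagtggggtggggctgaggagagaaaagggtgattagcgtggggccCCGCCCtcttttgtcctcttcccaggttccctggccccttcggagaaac
MUC16 (chr19:9065752-9066001, minus strand): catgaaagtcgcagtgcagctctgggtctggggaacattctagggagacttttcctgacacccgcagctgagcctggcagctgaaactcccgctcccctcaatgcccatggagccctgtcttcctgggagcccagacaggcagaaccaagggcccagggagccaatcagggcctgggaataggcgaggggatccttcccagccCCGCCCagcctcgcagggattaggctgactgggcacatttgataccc
MUC13 (chr3:124934752-124935001, minus strand): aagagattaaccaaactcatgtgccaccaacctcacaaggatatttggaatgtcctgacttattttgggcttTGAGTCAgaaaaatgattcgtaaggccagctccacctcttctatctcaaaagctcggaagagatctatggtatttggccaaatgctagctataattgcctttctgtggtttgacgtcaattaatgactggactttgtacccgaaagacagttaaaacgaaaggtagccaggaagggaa

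MUC1 held 4 GC box matches, 3 of which overlap in 1 run, and a TATA box 24 to 19 bases before the start. MUC4 held 1 GC box, 49 to 44 bases before the start, and MUC16 held 1, at 47 to 42 bases. MUC13 held no GC box and 1 AP-1 site, and its window was 41.6% G and C, against 60.4% to 66% in the other 3. The MUC2 window, at 59.6% G and C, also held an AP-1 site and no GC box. Of 35116 windows of this length over all listed starts, 42.6% held a GC box, 6.57% an AP-1 site, and 3763 of them a TATA box. A match is a run of letters, and binding was not measured.

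Of the enzymes that build mucin-type O-glycans, 19 of the 24 genes reached by a probe were detected on all 4 arrays, among them C1GALT1, which makes the core 1 structure, and its chaperone C1GALT1C1. Their median log2 difference was 0.09 for miR-376c minus miControl and -0.03 for siGRB2 minus siControl, beside -0.03 and 0.15 over all probes. Of 20 enzyme probes, 2 were at least 2-fold lower with siGRB2 than with siControl and 0 higher, beside 9.82% of all probes apart in either direction, and no probe was 2-fold apart the same way against both controls. These were GALNT7 and GALNT14, transferases that start the O-glycan chain, which with siGRB2 were lower than siControl by 1.64 and 1.11 and lower than miControl by 0.86 and 0.29. ST6GALNAC1, which adds the sialic acid of the sialyl-Tn antigen, was higher with siGRB2 by 0.99 against siControl and by 0.77 against miControl. GALNT11 was higher by 0.96 against siControl and at -0.04 against miControl. GALNT9 was well above background on the miControl array only, and there at least 3.07-fold higher than on the miR-376c array and at least 3.13-fold higher than on the siGRB2 array.

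The 5 probes of other mucins and sialomucins detected on both arrays had medians of -0.08 for miR-376c minus miControl and 0.25 for siGRB2 minus siControl. Among them and the dimmer probes, MUC12, a membrane mucin, was the gene past 2-fold against both controls. Its probe A_33_P3352038 was well above background on the miR-376c array only, with a level of -4.54, at least 5.43-fold above miControl and at least 3.42-fold above siControl. The other 2 MUC12 probes were detected on no array. PODXL, a sialomucin of the apical surface, was lower with miR-376c by 0.40 against miControl and by 0.95 against siControl, and with siGRB2 by 0.77 against siControl and by 0.22 against miControl. With siGRB2, OVGP1 was higher by 0.80 against siControl and by 0.30 against miControl, and MCAM by 0.59 and 0.60. CD164 A_24_P380536 had a difference of 0.25 against siControl and of -0.50 against miControl, and the other CD164 probe, A_23_P254756, of -0.10 and -0.29.

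The proteins secreted with mucus or needed to fold it had no probe past 2-fold in either treatment against either control, with medians over 7 probes of -0.15 for miR-376c minus miControl and -0.09 for siGRB2 minus siControl. AGR2, the disulfide isomerase that folds gel mucins, was higher with miR-376c by 0.62 against miControl and by 0.92 against siControl, and was at -0.09 and -0.39 with siGRB2 against siControl and miControl. FCGBP, a mucus-bound protein, was lower with miR-376c by 0.73 and 0.42. ZG16 had differences with siGRB2 of -0.999 against siControl, just short of 2-fold, and of 0.22 against miControl, and with miR-376c of 0.81 against miControl and -0.41 against siControl. ERN2, a stress sensor of mucus-secreting cells, had differences of -0.54 and -0.28 with siGRB2 against siControl and miControl.

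Of 18 transcription factors known to act at mucin genes, 15 were detected with a probe on all 4 arrays, and over 17 probes the medians were 0.10 for miR-376c minus miControl and 0.17 for siGRB2 minus siControl. With siGRB2 against siControl, EHF, an ETS factor of epithelia, was lower by 1.52 and STAT3, which relays cytokine signals, was higher by 1.13 at probe A_23_P100795. These were the only 2 of the 17 probes past 2-fold there, beside 9.82% of all probes. Against miControl the EHF and STAT3 values were -0.86 and 0.76, short of 2-fold with the same signs. The other STAT3 probe, A_24_P116805, was higher by 0.71 and 0.77 with siGRB2, and by 0.67 against miControl and 0.60 against siControl with miR-376c. CDX2, an intestinal homeobox factor, had differences of -0.89 and 0.01 with siGRB2 against siControl and miControl. With miR-376c, EHF and CDX2 were at least 2-fold lower than siControl, by 1.13 and 1.02, and had differences of -0.47 and -0.12 against miControl. They were 2 of the 17 probes past 2-fold against siControl, beside 7.26% of all probes.

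Among the proteins that bind membrane mucins, all 7 genes were detected on all 4 arrays with at least 1 probe, and over 11 probes the medians were -0.17 for miR-376c minus miControl and -0.06 for siGRB2 minus siControl. At least 2-fold higher with siGRB2 than with siControl were 3 of these probes: MSLN, the ligand of MUC16, by 1.31, CTNNB1, which binds the MUC1 tail, by 1.33 at A_33_P3421695, and ERBB3 by 1.03 at A_23_P349416, where 9.82% of all probes were 2-fold apart in either direction. Against miControl the differences were -0.16, 0.71 and 0.07. With miR-376c, the same CTNNB1 and ERBB3 probes were higher than siControl by 1.05 and 1.02. The other ERBB3 probe detected on all 4 arrays, A_33_P3211569, had -0.06 and -0.45 with siGRB2 against siControl and miControl, and the other CTNNB1 probe, A_23_P29495, had 0.30 and 0.64. MET, the receptor of hepatocyte growth factor, was lower with siGRB2 by 0.94 and 0.23. Markers of other cells were few: of goblet cell markers MUC2, SPDEF and TFF3 were detected on all 4 arrays and ATOH1 and CLCA1 on none, of 5 fibroblast markers LUM and COL1A1 were, and of 4 leukocyte markers PTPRC and CD14 were. COL1A1 was lower with miR-376c by 1.02 against miControl and by 0.63 against siControl, and its part in any mucin value was not tested.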

How the data were processed

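Gene expression was measured in 4 transfected, EGF-treated HuCCT1 cultures, 1 one-colour Agilent array each. The authors deposited spot intensity values of Agilent Feature Extraction (10.7.3.1, design build hg19): processed intensity, median intensity of spot and local background, flags and the software's error. The authors also deposited a log2 table shifted to the 75th percentile, used as an alternative. After centring, it equalled the scanner values within 0.01 for 99.45% to 99.54% of probes. Levels were computed from the processed intensity as log2 minus the log2 75th percentile of the non-control spots, without outlier-flagged spots (289 to 329 per array). Probes were named by accession through RefSeq's GRCh38.p14 table (25422 of 34127, 74.5%). Probes detected on at least 1 of 2 arrays entered a comparison. With detection on 1, the difference was a bound against the higher of the dim probe's signal and the lowest signal well above background. Called means at least 2-fold. Intervals are 1.96 times the scanner error. No test was possible with 1 array per condition. The calling step was tested on simulated data.

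All probes of the 10 mucins were named. Of each list beside them (other mucins, O-glycan enzymes, secretion partners, transcription factors, binding partners, cell type markers), genes 2-fold apart from both controls were named, and up to 4 with the largest difference from their own control among probes detected on 4 arrays, with some others named after their values were seen. A gene that this rule would name is not reported here. Members and lists were chosen with earlier results of these data known. Python (3.11.15), numpy (2.4.6), pandas (2.3.3), R (4.3.3) and limma (3.58.1) were used. Alternatives are given at the end.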

Additional observations from a re-analysis of the deposited data

How the results depend on the processing

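No paired analysis was possible because the groups hold 1 array apiece. For miR-376c minus miControl, the count of 0 mucin probes past the limit held under each alternative but the 1.5-fold limit, which gave 1. The median difference of 0.00 became 0.41 with siControl as the control, and stayed within the scanner error of a difference under the other alternatives. For siGRB2 minus siControl, the count of 0 became 6 at 1.5-fold and 6 under normexp (offset 50) on all spots, and was 0 under the rest. Under normexp on all spots the median over all probes was itself 1.03, past 2-fold. The share of all probes past the limit was not counted at 1.5-fold or under normexp, so these counts have no background beside them. The siGRB2 array held 5 spots whose local background exceeded their own signal, and the other arrays 0. Without those spots, an alternative chosen after seeing the data, normexp gave 0, so this count of 6 rests on them. The median of 0.58 was 0.27 with quantile normalization, 0.30 with a median shift and 0.34 with normexp without the 5 spots. Over the same 11 probes it was 0.16 with miControl as the control and 0.36 with the mean of both controls. The median of 0.29 given above against miControl is over 12 probes and includes MUC2 A_33_P3412384. The direction of single probes turned for 4 of 11 with the other control, in each treatment. Over all probes, the median of siGRB2 minus siControl moved from 0.15 to 0.02 with quantile normalization and to -0.13 with a median shift. Precision is limited by 1 array per condition and, for MUC5B, MUC13 and MUC15, by signals under the lowest that counted as well above background.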
